A study of Mus musculus with 18 samples.

Results

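In mouse fibroblasts expressing Oct4, Klf4, c-Myc and Sox2, many pluripotency and epithelial junction genes were higher on day 8 of reprogramming than on day 4. All 4 day 8 arrays were higher for 28 of 45 genes of a pluripotency list and 25 of 36 junction genes, against 8.65% of all probes tested. These lists were chosen with earlier results of these data known. Most fibroblast genes lay above day 4 on 1 array of each cassette and below it on the other. No single gene passed the fit of these 6 arrays, with cassette as a block, over all probes. The comparison holds 6 of the 18 arrays of the study: the 4 arrays of mCherry+ cells sorted on day 8 and the 2 of mCherry+ cells sorted on day 4. They were chosen by day and by the mCherry sort, not by any measured value, and each day 8 array was set against the day 4 array of its own cassette. The cells were mouse embryonic fibroblasts carrying the reverse tetracycline transactivator at the ROSA locus (ROSA-rtTA) and a Nanog-GFP reporter, into which a piggyBac transposon brought 1 of 2 doxycycline-driven polycistronic cassettes linked to mCherry. The high-KLF4 cassette (OK+9MS) encodes a longer Klf4 cDNA and gives more KLF4 protein, and the low-KLF4 cassette (OKMS) encodes a shorter one. Both were induced with 1 µg/mL doxycycline. High-KLF4 and low-KLF4 cells each had 2 arrays on day 8, from independent experiments according to the methods, and 1 array on day 4. The 2 changes measured in a cassette therefore share a day 4 array, and no spread was measured on day 4. Signals are the deposited RMA intensities of Affymetrix Mouse Gene ST arrays, and changes are log2 differences, so that 1 is a doubling. Limma was fitted on the 6 arrays with cassette as a block over 23410 probes with a gene symbol, and p-values were adjusted by Benjamini-Hochberg over all of them.

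Fibroblasts that reprogram pass through a mesenchymal-to-epithelial transition, in which matrix and contractile genes are shut down and E-cadherin, tight junctions and keratins of simple epithelia are switched on. Many of these epithelial genes carry E-boxes in their promoters, the short sites that the mesenchymal repressors of the Snail and Zeb families bind. The pluripotency network is switched on later and in steps, with some genes such as Nanog turned on in intermediates and others only in iPSCs.

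The day 8 arrays numbered 2 stood apart from those numbered 1 in both cassettes, above all in fibroblast genes. The summed signal of 9 defining fibroblast markers (Col1a1, Col1a2, Col3a1, Thy1, Pdgfra, Pdgfrb, Dcn, Postn and Fn1) was 41636 and 15479 in high-KLF4 cells, 44115 and 14561 in low-KLF4 cells on day 8, against 32594 and 24389 on day 4. The same sum was 5463 and 5260 in keratinocytes. Array medians lay between 145.4 and 154.4 on day 8, against 150.9 and 153.2 on day 4. The SD over probes of the change from day 4 was 0.27 and 0.46 in high-KLF4, 0.30 and 0.41 in low-KLF4. The array numbers separated 4521 probes (19.3% of those tested), which lay above day 4 in both arrays of one number and below it in both arrays of the other. Defining immune markers (Ptprc, Cd68, Csf1r and Laptm5) summed to between 1224 and 3335 on day 8, against 3014 and 1627 on day 4, and 0 of the 4 kept one direction on all day 8 arrays.

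In the limma fit 0 probes rose and 0 fell (0% in each direction), with 453 probes higher (1.94%) and 852 lower (3.64%) at an unadjusted p under 0.05 and a lowest adjusted p of 0.607. The t-test of the methods also left 0 in either direction after adjustment. In a fit of all 18 arrays in 12 groups, where all groups share 1 estimate of the spread, 27 probes passed higher (0.115%) and 14 lower (0.0598%), among them Trh, Nanog, Slc2a3, Utf1, Tdgf1, Cldn6, Epcam and Anxa10. The day 8 pairs differed more than other pairs, so that this shared spread would understate the error. Since no probe passed the 6-array fit, genes are described below by whether all 4 day 8 arrays lay on one side of day 4. Over all probes tested, 2024 (8.65%) were higher on all 4 arrays and 4137 (17.7%) lower, with a median difference of -0.03. At 2-fold or more on every array, 19 probes were higher (0.0812%) and 3 lower (0.0128%).

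**Figure D1:**
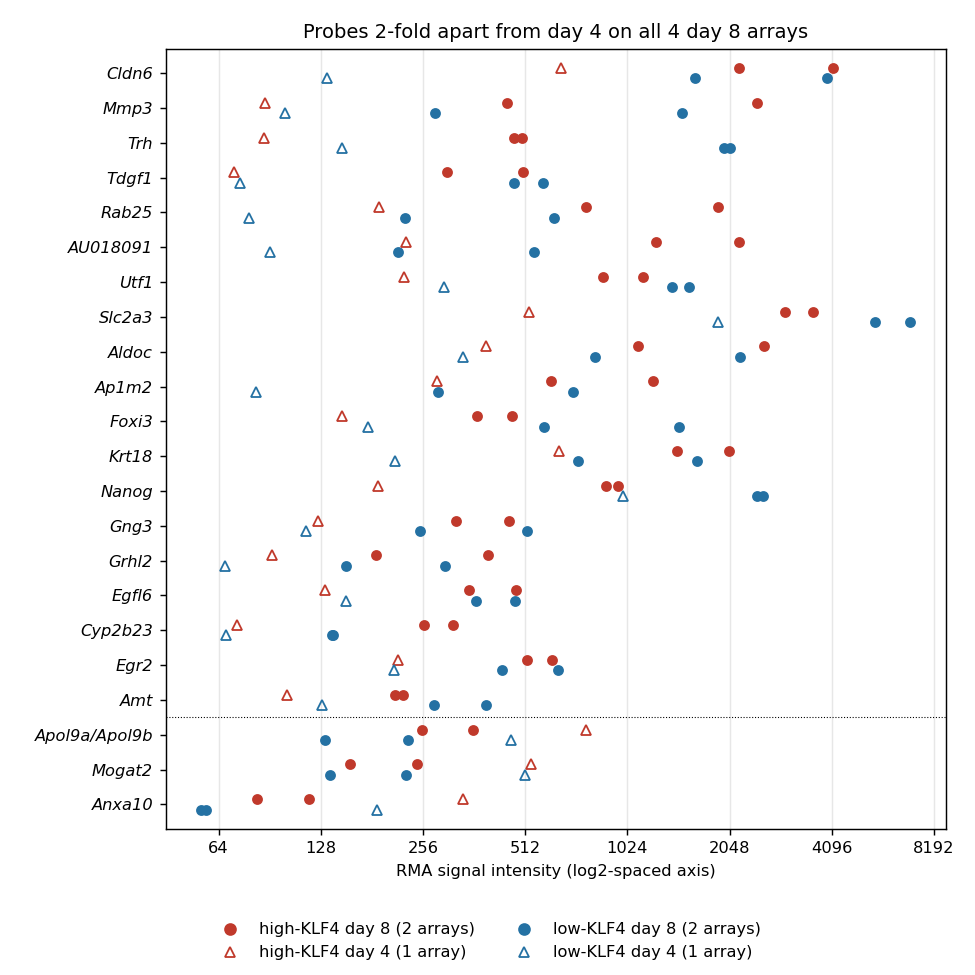
RMA signal (log2-spaced axis) of the 22 probes that differed at least 2-fold from day 4 on all 4 day 8 arrays, with high-KLF4 arrays in red and low-KLF4 arrays in blue, day 8 as filled circles and day 4 as open triangles. The 19 probes above the dotted line were higher on day 8 and the 3 below it lower. For Trh, Nanog and Slc2a3 the low-KLF4 arrays sat above the high-KLF4 arrays on both days.

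Several pluripotency genes differed from day 4 by similar amounts on all 4 arrays. Utf1, a chromatin factor of pluripotent cells (chromosome 7, 139943856 to 139945112, GRCm38.p6), read 1141 and 868 in high-KLF4 cells, 1389 and 1557 in low-KLF4 cells on day 8, against 225 and 294 on day 4. All 4 day 8 arrays thus lay well above both day 4 arrays, and the difference of 2.23 (SE 0.14) had the lowest adjusted p of all probes in limma, 0.607. Tdgf1, the gene of the Nodal co-receptor Cripto, read 503 and 302 in high-KLF4 cells, 579 and 473 in low-KLF4 cells on day 8, against 70.9 and 74.1 on day 4 (difference 2.64, SE 0.25, limma adjusted p = 0.615). It and Trh were the only 2 probes that were 4-fold higher on every array.

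Trh, which encodes the precursor of thyrotropin-releasing hormone (chromosome 6, 92242061 to 92244650), read 501 and 474 in high-KLF4 cells, 2051 and 1976 in low-KLF4 cells on day 8, against 87.3 and 148 on day 4. The 2 arrays of a cassette lay close together, at log2 changes of 2.52 and 2.44 in high-KLF4, 3.80 and 3.74 in low-KLF4. The difference over both cassettes was 3.13 (SE 0.30, limma adjusted p = 0.615). Nanog, the homeodomain factor whose locus drives the reporter, read 888 and 963 in high-KLF4 cells, 2565 and 2464 in low-KLF4 cells on day 8, against 188 and 992 on day 4. High-KLF4 cells on day 8 were thus at about the Nanog signal that low-KLF4 cells had on day 4, and the groups of days overlapped across cassettes while separating within each. Slc2a3, a neuronal and embryonic glucose transporter gene that neighbours Nanog on chromosome 6, read 2976 and 3602 in high-KLF4 cells, 5483 and 6980 in low-KLF4 cells on day 8, against 525 and 1894 on day 4.

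Of the 45 genes measured from the pluripotency list, 28 were higher on all 4 day 8 arrays and 1 lower (the listed member Rexo2), where the background is 8.65% and 17.7%. 0 passed the 6-array limma fit. Their median difference was 0.64, with medians of 0.46 and 0.88 on the high-KLF4 arrays, 0.22 and 0.59 on the low-KLF4 arrays. The members below were picked after their values were seen. Esrrb, an orphan nuclear receptor of naive cells, read 436 and 483 in high-KLF4 cells, 176 and 154 in low-KLF4 cells on day 8, against 109 and 102 on day 4. Tfcp2l1, another naive-state factor, read 377 and 985 in high-KLF4 cells, 143 and 315 in low-KLF4 cells, against 109 and 98.6. Sall4, a zinc-finger partner of Oct4, read 1444 and 1777 in high-KLF4 cells, 1136 and 1397 in low-KLF4 cells, against 645 and 795. These 3 genes were above day 4 on every array, with larger log2 changes in high-KLF4 than in low-KLF4 for arrays of the same number. Zfp42 and Dppa3, which mark the end of reprogramming, had no such difference: Zfp42 read 64.6 and 70.6 in high-KLF4 cells, 51.5 and 49.7 in low-KLF4 cells on day 8, against 60.0 and 50.4 on day 4, and Dppa3 stayed between 60.2 and 65.3 on day 8, against 63.2 and 68.6.

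The test of whether the change differed between cassettes, a contrast in the 12-group fit, called 2 probes with a larger change in high-KLF4 (0.00854%) and 0 with a smaller one, with 552 at an unadjusted p under 0.05 (2.36%). Both were pluripotency genes. Nr0b1, also called Dax1, a nuclear receptor of embryonic stem cells on chromosome X (86191775 to 86195947), read 1088 and 1354 on day 8 against 90.96 on day 4 in high-KLF4 cells, and 2658 and 2785 on day 8 against 2233 on day 4 in low-KLF4 cells. Its change was larger by 3.45 in high-KLF4 (SE 0.26, limma adjusted p = 0.0155). Low-KLF4 cells had thus reached the greater part of their day 8 signal by day 4, and high-KLF4 cells stood at their day 2 signal (91.8) on day 4. Dppa5a, an RNA-binding protein gene of pluripotent cells (chromosome 9, 78367052 to 78368199), read 460 and 498 on day 8 against 69.2 on day 4 in high-KLF4 cells, and 83.6 and 89.4 on day 8 against 79.0 on day 4 in low-KLF4 cells. Its change was larger by 2.66 in high-KLF4 (SE 0.24, limma adjusted p = 0.0343). Each call rests on a single day 4 array per cassette that was assumed to vary like the groups with 2 arrays. The spread shared by the 12 groups would also understate the error, since the day 8 pairs differed more than other pairs. Without low-KLF4 day 8 replicate 1 neither passed (adjusted p = 0.0781 for Nr0b1 and 0.0795 for Dppa5a), without high-KLF4 day 8 replicate 2 only Nr0b1 did (0.0443, against 0.101 for Dppa5a), and in a fit of the 6 arrays alone both had an adjusted p of 1. Without high-KLF4 day 8 replicate 1, 50 probes had a larger and 3 a smaller change in high-KLF4, and without low-KLF4 day 8 replicate 2, 2 had a larger and 3 a smaller one.

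**Figure D2:**
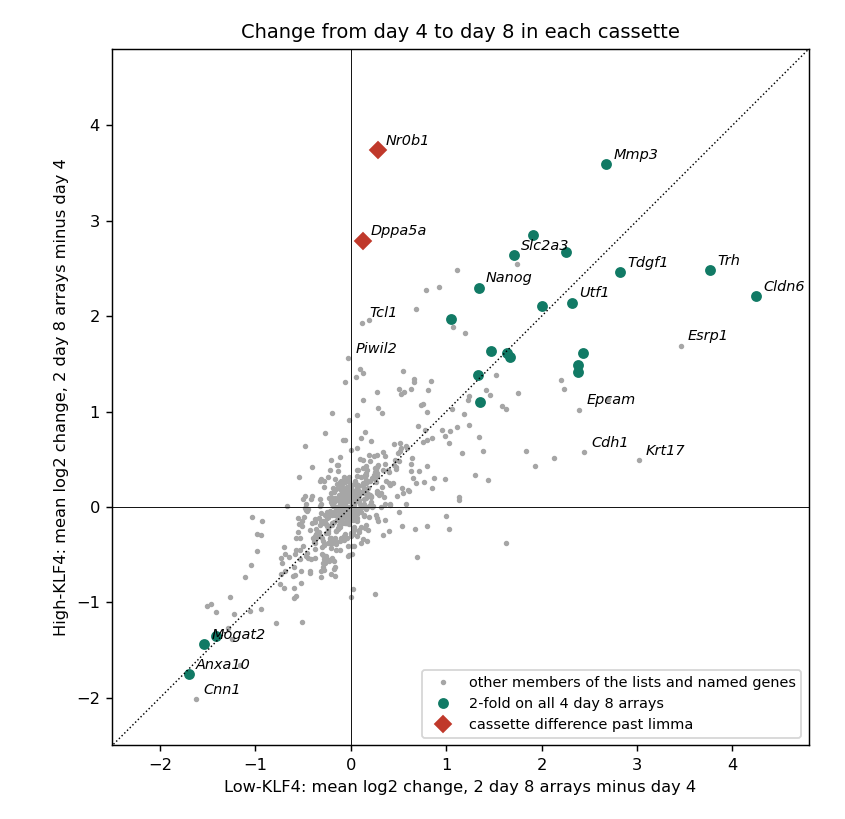
Mean log2 change of the 2 day 8 arrays from the day 4 array in high-KLF4 (vertical axis) against low-KLF4 (horizontal axis), 1 point per listed or named gene, with the dotted line at equal change. Nr0b1 and Dppa5a (red diamonds) lay far above the line and near 0 in low-KLF4, and Cldn6, Esrp1, Krt17 and Cdh1 lay below it.

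Epithelial junction genes were higher on day 8 in both cassettes, by larger amounts on the arrays numbered 2. Of the 36 genes measured, 25 were higher on all 4 arrays (against 8.65% of all probes) and 0 lower (against 17.7%). At an unadjusted p under 0.05, 15 were higher (against 1.94% of all probes), and 0 passed limma over all probes. The median difference was 0.91, with medians of 0.39 and 1.38 on the high-KLF4 arrays, 0.65 and 1.64 on the low-KLF4 arrays. Cldn6, a claudin of embryonic epithelia (chromosome 17, 23679348 to 23682446), read 2190 and 4136 in high-KLF4 cells, 1621 and 3978 in low-KLF4 cells on day 8, against 651 and 133 on day 4, the largest difference over all probes at 3.23 (SE 0.65, limma adjusted p = 0.895). Rab25, a GTPase of apical recycling (chromosome 3, 88542029 to 88548279), read 774 and 1892 in high-KLF4 cells, 227 and 621 in low-KLF4 cells on day 8, against 190 and 78.7 on day 4. Ap1m2, the epithelial subunit of an adaptor complex for basolateral sorting, read 610 and 1216 in high-KLF4 cells, 283 and 709 in low-KLF4 cells, against 282 and 82.7. In each of these genes the low-KLF4 cells started lower on day 4 and the array numbered 2 was the higher of its pair.

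Krt18, which encodes a keratin of simple epithelia, read 1432 and 2040 in high-KLF4 cells, 735 and 1647 in low-KLF4 cells on day 8, against 643 and 211 on day 4. Esrp1, an epithelial splicing regulator, read 668 and 1930 in high-KLF4 cells, 784 and 1649 in low-KLF4 cells, against 353 and 104. Among the genes the study itself examined, Epcam, an epithelial adhesion molecule (chromosome 17, 87635979 to 87651127), read 1212 and 1041 in high-KLF4 cells, 1158 and 1235 in low-KLF4 cells on day 8, against 555 and 227 on day 4 (difference 1.71, SE 0.33, limma adjusted p = 0.895). The day 8 arrays of both cassettes agreed closely for Epcam. For Cdh1, which encodes E-cadherin (chromosome 8, 106603350 to 106670247), they read 3338 and 4446 in high-KLF4 cells, 1829 and 3124 in low-KLF4 cells, against 2584 and 439, so that the log2 changes were 0.37 and 0.78 in high-KLF4, 2.06 and 2.83 in low-KLF4. The difference between cassettes was -1.87 for Cdh1 and -1.38 for Epcam, and neither passed its test. Cldn4 read 3675 and 6992 in high-KLF4 cells, 995 and 3032 in low-KLF4 cells, against 2308 and 269. Ocln, the occludin gene, was above day 4 on 3 of the 4 arrays, at 359 and 900 in high-KLF4 cells, 157 and 446 in low-KLF4 cells, against 270 and 157.

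Most promoters read for these junction genes held the same short sequence. The list was not shown to be chosen without regard to this sequence, so its share is given as a description. RefSeq windows of 300 bases (250 before to 50 after a start of the gene, GRCm38.p6) were matched for 23 of the 36 genes, and 19 of the 23 held the E-box CAGGTG on either strand (82.6%), against 3465 of the 15614 tested genes with a window (22.2%). Among the 15 genes with a window that were higher on all 4 arrays, 14 held it, with Spint1 as the exception, and among the 8 whose arrays were mixed 5 did. In the pluripotency list 12 of 31 genes held it (38.7%), in the mesenchymal list 2 of 19 (10.5%) and in the list of the 19 probes 7 of 16 (43.8%). The windows of 4 junction genes are shown, 5′ to 3′ on the strand of the gene with every CAGGTG or its complement CACCTG in capitals, because, among the junction genes with a window, Cldn6, Rab25 and Ap1m2 were at least 2-fold higher on all 4 arrays and Epcam was examined by the study. Positions are counted from the start that each window uses, which in Cldn6 and Ap1m2 lies inside the RefSeq gene interval and not at its edge.
Cldn6 (chr17:23679115-23679414, + strand): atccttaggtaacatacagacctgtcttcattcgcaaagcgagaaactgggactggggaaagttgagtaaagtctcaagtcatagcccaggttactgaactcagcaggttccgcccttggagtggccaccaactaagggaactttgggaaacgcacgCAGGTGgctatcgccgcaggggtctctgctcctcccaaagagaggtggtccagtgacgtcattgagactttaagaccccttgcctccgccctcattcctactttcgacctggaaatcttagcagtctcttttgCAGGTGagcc
Rab25 (chr3:88548230-88548529, - strand): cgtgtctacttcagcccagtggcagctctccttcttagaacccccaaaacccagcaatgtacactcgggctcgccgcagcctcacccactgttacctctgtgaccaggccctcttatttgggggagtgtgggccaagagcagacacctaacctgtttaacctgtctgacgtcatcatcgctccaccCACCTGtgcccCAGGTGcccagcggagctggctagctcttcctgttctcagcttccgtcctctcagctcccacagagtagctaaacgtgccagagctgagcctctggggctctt
Ap1m2 (chr9:21312284-21312583, - strand): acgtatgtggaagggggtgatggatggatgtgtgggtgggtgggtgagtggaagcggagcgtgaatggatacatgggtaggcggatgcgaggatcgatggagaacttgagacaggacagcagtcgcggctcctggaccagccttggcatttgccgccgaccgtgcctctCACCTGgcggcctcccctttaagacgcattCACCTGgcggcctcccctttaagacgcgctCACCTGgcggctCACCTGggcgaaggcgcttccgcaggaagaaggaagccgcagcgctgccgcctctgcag
Epcam (chr17:87635729-87636028, + strand): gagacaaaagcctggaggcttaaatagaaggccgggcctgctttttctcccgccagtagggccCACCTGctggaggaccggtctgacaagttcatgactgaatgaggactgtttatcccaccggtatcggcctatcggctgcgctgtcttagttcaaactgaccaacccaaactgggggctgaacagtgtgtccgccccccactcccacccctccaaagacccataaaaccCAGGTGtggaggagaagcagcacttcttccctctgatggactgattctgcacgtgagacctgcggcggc
Ap1m2 held 4 matches, at 81, 51, 21 and 9 bases before its start, and the other 3 genes held 2 each. In Rab25 they lay 64 and 53 bases before the start, in Epcam 187 and 19 before it, and in Cldn6 93 before and 41 after it. The other motifs searched on both strands were the AP-1 motif TGANTCA, found in 17.4% of the junction genes against 8.08% of all tested genes, the Krüppel-like motif GGGTGTGG (8.7% against 4.37%), the NF-Y motif CCAAT (30.4% against 41.7%), the cell-cycle motif TTTGAA (8.7% against 17.3%) and the octamer ATTTGCAT (4.35% against 1.9%). Where motifs overlapped, each was counted. A match is a description of the letters in the window and not evidence of a bound factor.

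The genes of the repressors that bind such E-boxes were not lower on every array. Zeb1 read 1204 and 411 in high-KLF4 cells, 1315 and 445 in low-KLF4 cells on day 8, against 1269 and 1159 on day 4, and Snai2 read 1156 and 326 in high-KLF4 cells, 1446 and 337 in low-KLF4 cells, against 1074 and 1167. Snai1 read 1234 and 363 in high-KLF4 cells, 1441 and 289 in low-KLF4 cells, against 683 and 652. All 3 were well below day 4 only on the arrays numbered 2. Of the 20 genes of the list of epithelial-mesenchymal transition factors and TGF-β response, 13 were split by array number, 2 were higher on all 4 arrays (Ccn2 and Ccn1) and 0 lower.

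Transcription factors of epithelia followed the junction genes in part: 11 of 18 were higher on all 4 arrays (against 8.65% of all probes) and 1 lower (Sim2, against 17.7%), with a median difference of 0.51. Grhl2, a grainyhead factor that drives junction genes, read 187 and 397 in high-KLF4 cells, 152 and 298 in low-KLF4 cells on day 8, against 91.7 and 67.0 on day 4. Tfap2c, an AP-2 factor of trophoblast and germ cells, read 289 and 357 in high-KLF4 cells, 233 and 345 in low-KLF4 cells, against 155 and 94.5. Elf5, an ETS factor of gland epithelium and trophoblast, read 281 and 666 in high-KLF4 cells, 99.01 and 160 in low-KLF4 cells, against 87.7 and 66.5. In all 3 the low-KLF4 cells on day 8 were above the day 4 signal of their own cassette on both arrays. Ovol1, which the study examined, was mixed, at 445 and 974 in high-KLF4 cells, 147 and 174 in low-KLF4 cells, against 506 and 103. Trp63, the master factor of stratified epithelium, read 119 and 95.02 in high-KLF4 cells, 130 and 114 in low-KLF4 cells, against 106 and 104, and its changes lay between -0.15 and 0.32.

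Among genes of the stratified epithelium, Krt17 and Sfn were far above a low day 4 signal in low-KLF4 cells and within 2-fold of a high one in high-KLF4 cells. Krt17, a stress keratin of basal epithelium, read 8803 and 8363 in high-KLF4 cells, 1833 and 1084 in low-KLF4 cells on day 8, against 6101 and 174 on day 4. Sfn, which encodes stratifin, read 5634 and 6118 in high-KLF4 cells, 1882 and 1356 in low-KLF4 cells, against 4129 and 364. Of the 37 keratinization genes 8 were higher on all 4 arrays (21.6%, against 8.65% of all probes) and 2 lower (5.41%, against 17.7%), with a median difference of 0.24. Krt6b ran the other way in low-KLF4, at 4781 and 6134 in high-KLF4 cells, 1244 and 1272 in low-KLF4 cells, against 5808 and 2576. Defining keratinocyte markers (Krt5, Krt14, Trp63, Dsg3, Itgb4, Krt1, Krt10 and Ivl) summed to 8948 and 13577 in high-KLF4 cells, 2242 and 3253 in low-KLF4 cells, against 9622 and 1974, and 1 of the 8 was higher on all 4 arrays.

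Of the cell-surface genes that the study examined, the integrin genes Itga6 and Itgb4 were at or below day 4 on the arrays numbered 1 and above it on those numbered 2. Itga6 read 2375 and 3556 in high-KLF4 cells, 781 and 1183 in low-KLF4 cells on day 8, against 2606 and 875 on day 4, and Itgb4 read 4176 and 6204 in high-KLF4 cells, 1302 and 2435 in low-KLF4 cells, against 4293 and 1312. Itgb1, the common β1 chain, ran opposite, at 3712 and 2372 in high-KLF4 cells, 3776 and 1968 in low-KLF4 cells, against 3446 and 2660. None of the 3 therefore had a direction that held on all arrays. Nt5e, the gene of CD73, read 1686 and 3030 in high-KLF4 cells, 316 and 414 in low-KLF4 cells, against 854 and 332. Fut9, the fucosyltransferase that makes SSEA-1, read 72.8 and 108 in high-KLF4 cells, 251 and 574 in low-KLF4 cells, against 58.9 and 266.

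**Figure D3:**
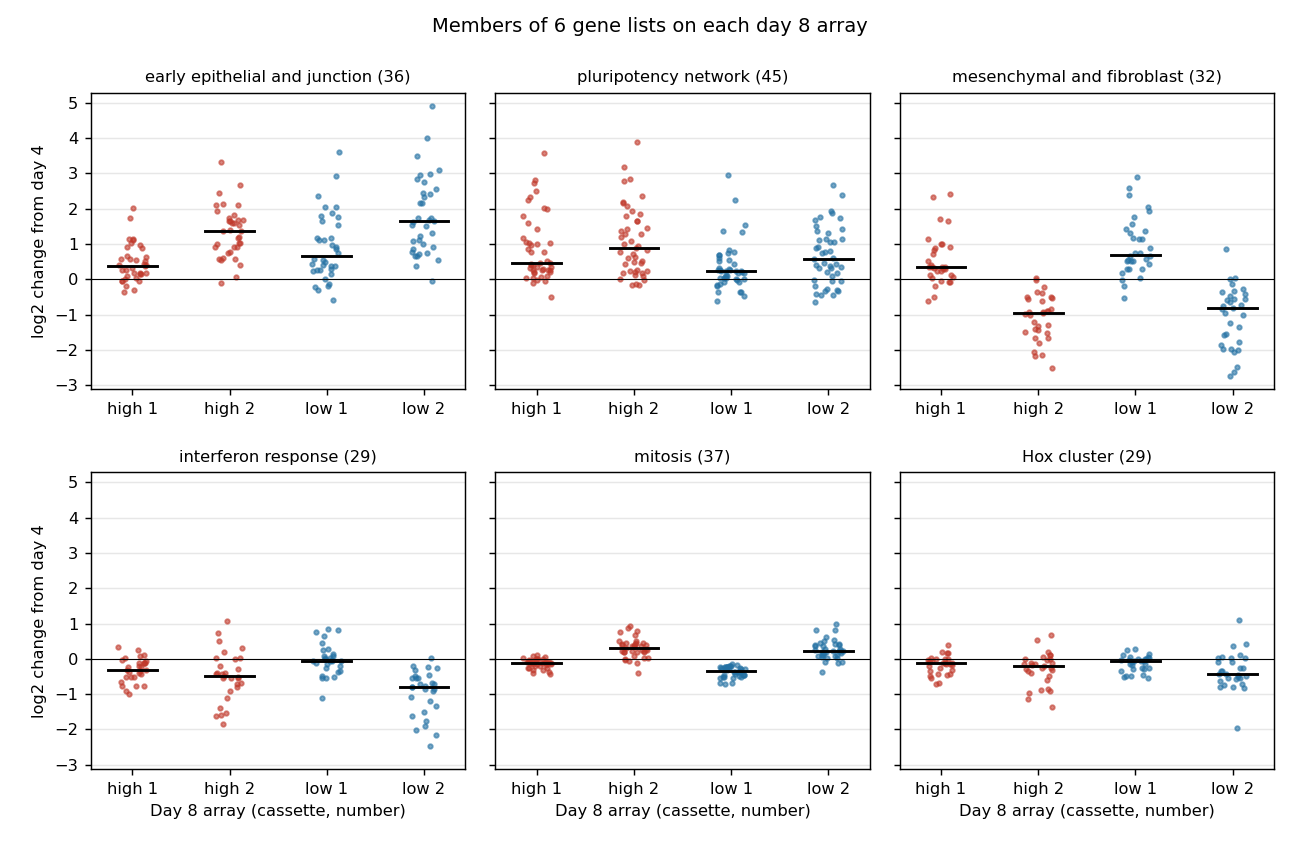
Log2 change from the day 4 array of the same cassette for each member of 6 gene lists on each day 8 array (high-KLF4 in red, low-KLF4 in blue), with a bar at the median. Junction and pluripotency genes lay mostly above 0 on all 4 arrays, and mesenchymal genes lay above 0 on both arrays numbered 1 and below it on both numbered 2, by their medians, and the medians of the mitosis genes ran in reverse.

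Fibroblast genes lay on opposite sides of day 4 on the 2 arrays of a cassette. Of 32 mesenchymal genes, 24 were split by array number, 1 was higher on all 4 arrays (Lum) and 3 lower (Cdh2, S100a4 and Vim), with medians of 0.34 and -0.96 on the high-KLF4 arrays, 0.69 and -0.83 on the low-KLF4 arrays. Col3a1, a fibrillar collagen gene, read 2026 and 493 in high-KLF4 cells, 2185 and 498 in low-KLF4 cells on day 8, against 922 and 744 on day 4. Pdgfra read 834 and 222 in high-KLF4 cells, 817 and 220 in low-KLF4 cells, against 257 and 213. The day 4 signal lay between the 2 day 8 arrays in both cassettes for Col3a1 and in high-KLF4 for Pdgfra, and just under both in low-KLF4 for Pdgfra. Cdh2, which encodes N-cadherin, was the mesenchymal gene lowest against day 4, at 969 and 340 in high-KLF4 cells, 1077 and 391 in low-KLF4 cells, against 1497 and 1543 (difference -1.32, SE 0.59, limma adjusted p = 0.922). Cnn1, a calponin of contractile cells, read 1752 and 195 in high-KLF4 cells, 2473 and 163 in low-KLF4 cells, against 2362 and 1962. It had the lowest difference over all probes (-1.82, SE 1.41), with changes of -3.60 and -3.59 on the arrays numbered 2, against -0.43 in high-KLF4 and 0.33 in low-KLF4 on those numbered 1. In these bulk populations fewer fibroblast-like cells and less RNA per cell cannot be told apart.

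**Figure D4:**
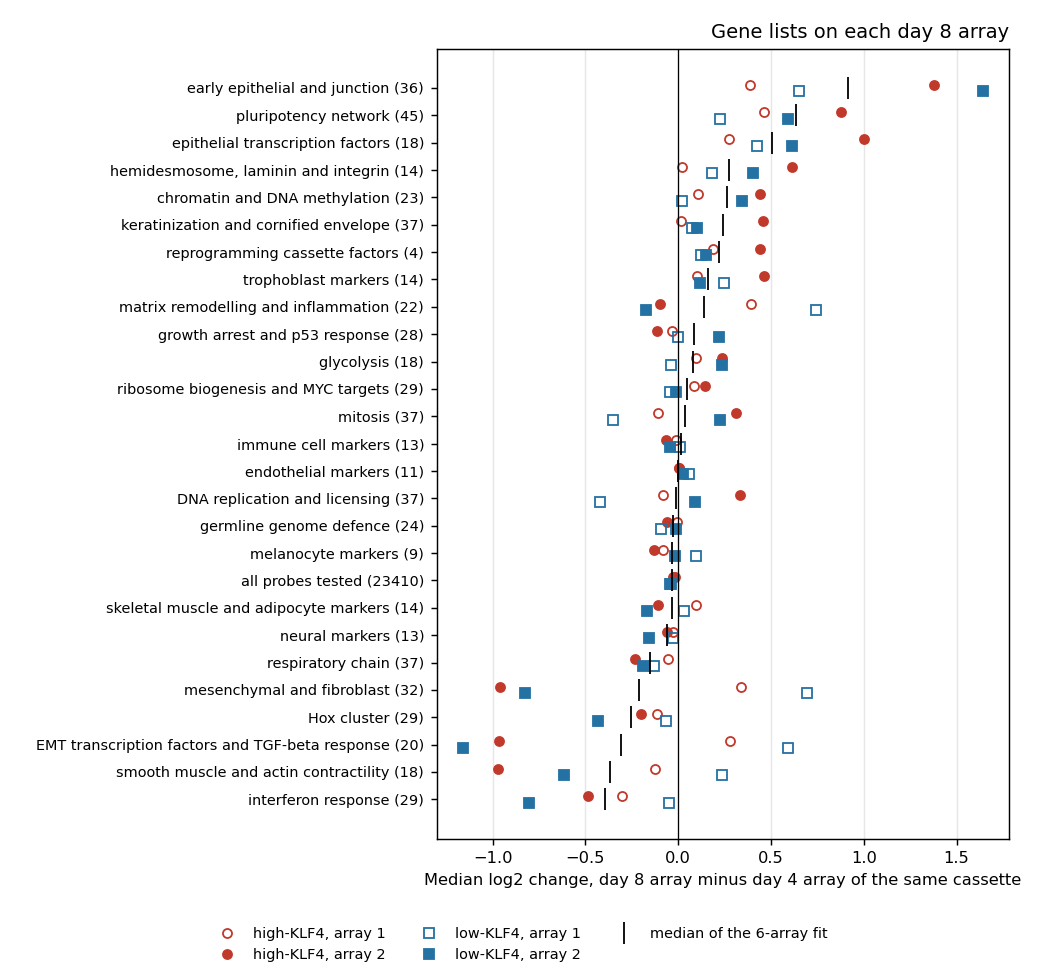
Median log2 change of each gene list on each day 8 array from the day 4 array of its cassette, with the number of genes measured in parentheses (open symbols array 1, filled symbols array 2) and a bar at the median of the 6-array fit. The mesenchymal list ran from -0.96 to 0.69 between arrays, whereas the junction list was between 0.39 and 1.64 on all of them.

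Among genes lower on day 8, the 3 probes at 2-fold or more on every array were Anxa10, Mogat2 and a probe shared by Apol9a and Apol9b. Anxa10, an annexin gene (chromosome 8, 62057042 to 62123193), read 83.3 and 118 in high-KLF4 cells, 56.9 and 58.9 in low-KLF4 cells on day 8, against 335 and 188 on day 4 (difference -1.73, SE 0.16, limma adjusted p = 0.615). Mogat2, an acyltransferase gene of triglyceride synthesis, read 246 and 156 in high-KLF4 cells, 229 and 136 in low-KLF4 cells, against 532 and 511. All 4 day 8 arrays of these genes lay below both day 4 arrays, and so did those of the Apol9a and Apol9b probe, at 255 and 360 in high-KLF4 cells, 231 and 132 in low-KLF4 cells, against 771 and 465. Signals of the paralogs Apol9a and Apol9b cannot be separated on this probe.

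Of 29 interferon-stimulated genes measured, 12 were lower on all 4 day 8 arrays (against 17.7% of all probes), 0 higher and 17 mixed, with a median difference of -0.40 and array medians of -0.31 and -0.49 in high-KLF4, -0.05 and -0.81 in low-KLF4. Ifit1, an antiviral RNA-binding protein gene, read 1247 and 849 in high-KLF4 cells, 1407 and 508 in low-KLF4 cells on day 8, against 2479 and 2061 on day 4. Cxcl10, an interferon-induced chemokine gene, read 3284 and 1087 in high-KLF4 cells, 3175 and 840 in low-KLF4 cells, against 3875 and 4657. Ifi35 had the narrowest changes of the lower members named here, at 390 and 478 in high-KLF4 cells, 446 and 404 in low-KLF4 cells, against 668 and 644. No member passed limma, and all 3 had an adjusted p between 0.895 and 0.926.

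Homeobox genes of the Hox clusters, which hold the positional identity of fibroblasts, were lower on all 4 arrays in 15 of 29 cases (against 17.7% of all probes) and higher in 2 (Hoxd8 and Hoxb2), near the 8.65% of all probes, with a median difference of -0.26. Hoxc8 read 959 and 1222 in high-KLF4 cells, 861 and 753 in low-KLF4 cells on day 8, against 1556 and 1259 on day 4, and Hoxa10 read 306 and 241 in high-KLF4 cells, 332 and 240 in low-KLF4 cells, against 446 and 424. Both were below day 4 on all arrays, and no Hox gene passed limma. Respiratory chain genes were lower on all 4 arrays in 15 of 37 cases (against 17.7% of all probes) and higher in 0, with a median of -0.15, and the largest of these, Ndufa4 at -0.40, was still within a factor of 2. Of 18 glycolysis genes 4 were higher on all 4 arrays, 2 lower and 12 mixed, with a median of 0.08, against 8.65% and 17.7% of all probes on one side. Slc2a1 and Slc16a3, picked after their values were seen, were among those above day 4 on every array: Slc2a1, the basal glucose transporter gene, read 8427 and 10698 in high-KLF4 cells, 6367 and 9270 in low-KLF4 cells, against 3814 and 4291, and Slc16a3, a lactate exporter gene, read 1628 and 2593 in high-KLF4 cells, 1632 and 2738 in low-KLF4 cells, against 1032 and 1219. Aldoc, a glycolytic aldolase gene, read 1100 and 2588 in high-KLF4 cells, 824 and 2203 in low-KLF4 cells, against 393 and 337.

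Of 22 matrix remodelling and inflammation genes, 6 were higher on all 4 arrays (against 8.65% of all probes) and 1 lower (against 17.7%), and members differed widely between the arrays of a pair. Mmp3, the stromelysin-1 gene (chromosome 9, 7445822 to 7455975), read 2475 and 453 in high-KLF4 cells, 1485 and 277 in low-KLF4 cells on day 8, against 87.7 and 100 on day 4 (difference 3.13, SE 0.98, limma adjusted p = 0.895). Mmp13, a collagenase gene, had the same order of arrays, at 1139 and 388 in high-KLF4 cells, 641 and 219 in low-KLF4 cells, against 187 and 163. Lcn2, an acute-phase siderophore binder, had the reverse order, at 298 and 582 in high-KLF4 cells, 136 and 510 in low-KLF4 cells, against 71.4 and 79.1. All 3 were above day 4 on every array, the proteases most on the arrays rich in fibroblast markers and Lcn2 on the others. The part of the fibroblast signal in these differences was not tested.

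Other genes that were 2-fold higher on all 4 arrays had varied roles. Egr2, an immediate-early zinc-finger factor, read 518 and 613 in high-KLF4 cells, 439 and 642 in low-KLF4 cells on day 8, against 216 and 210 on day 4. Foxi3, a forkhead factor of ectodermal placodes, read 370 and 470 in high-KLF4 cells, 582 and 1457 in low-KLF4 cells, against 148 and 177. Egfl6, a secreted matrix protein gene, read 481 and 349 in high-KLF4 cells, 477 and 367 in low-KLF4 cells, against 132 and 151. Separation from day 4 within each cassette follows from how these genes were chosen. The remaining ones were AU018091, Gng3, Cyp2b23 and Amt, with differences between 1.23 and 2.38.

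Among chromatin genes 8 of 23 were higher on all 4 arrays (against 8.65% of all probes) and 0 lower (against 17.7%), with a median of 0.26. Tet1, a 5-methylcytosine dioxygenase gene, read 610 and 931 in high-KLF4 cells, 530 and 1726 in low-KLF4 cells on day 8, against 203 and 453 on day 4. Jarid2, a subunit of Polycomb complex 2, read 1151 and 1774 in high-KLF4 cells, 1143 and 2220 in low-KLF4 cells, against 566 and 1009. Of 24 germline genome defence genes, 4 were higher on all 4 arrays (16.7%, against 8.65% of all probes) and 5 lower (20.8%, against 17.7%). Their median was -0.03, as over all probes. Rhox6 and Rhox9 were picked after their values were seen. Rhox6, an X-linked homeobox gene of placenta and germ line, read 623 and 574 in high-KLF4 cells, 306 and 327 in low-KLF4 cells, against 256 and 180. Rhox9 read 309 and 378 in high-KLF4 cells, 136 and 128 in low-KLF4 cells, against 88.2 and 116. These 4 genes lay above day 4 on every array. The factors of the cassettes themselves differed little: Klf4 by 0.38, Sox2 by 0.25, Pou5f1 by 0.19 and Myc by 0.15, and these signals do not separate cassette transcripts from endogenous ones.

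Of 37 mitosis genes 26 were split by array number (against 19.3% of all probes), 0 were higher on all 4 arrays and 2 lower, with medians of -0.11 and 0.31 on the high-KLF4 arrays, -0.35 and 0.22 on the low-KLF4 arrays. Of 37 replication genes 17 were split by number, 0 were higher on all 4 arrays and 5 lower, with medians of -0.08 and 0.33 in high-KLF4, -0.42 and 0.09 in low-KLF4. The medians of both lists thus lay below day 4 on the arrays with the higher fibroblast sum and above it on the others. In the 30 mitosis genes with a promoter window, TTTGAA stood in 23 (76.7%) and CCAAT in 22 (73.3%), against 17.3% and 41.7% of all tested genes.

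**Figure D5:**
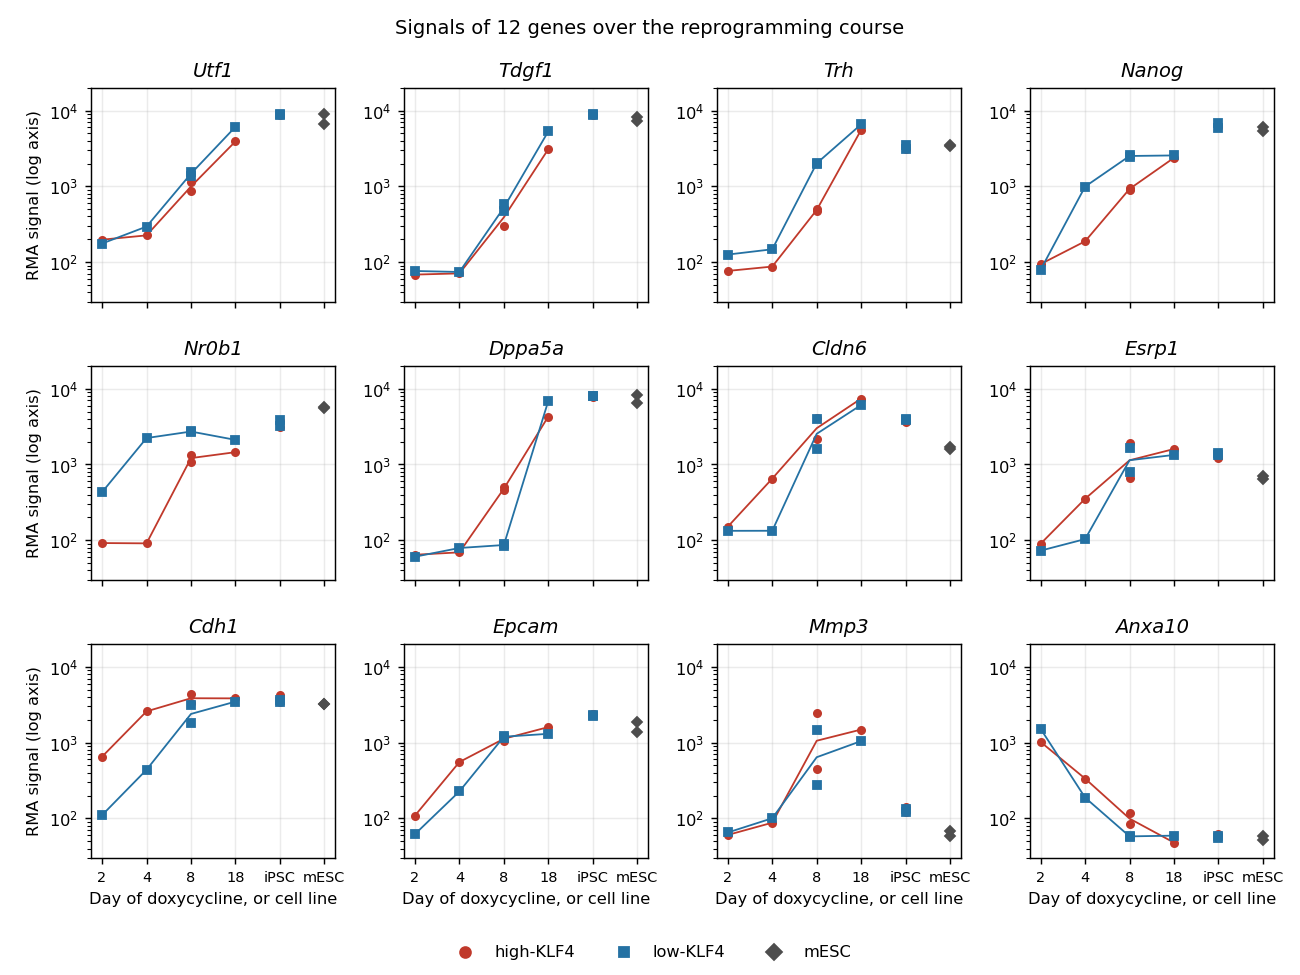
RMA signal (log axis) of 12 genes on days 2, 4, 8 and 18 of doxycycline and in the iPSC clones and mESCs, 1 symbol per array with lines through the mean log2 signal. Utf1, Tdgf1 and Dppa5a were higher again on day 18 and in iPSCs, Mmp3 was low in both pluripotent lines, and Anxa10 was already lower on day 4 than on day 2.

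The other arrays of the series place these genes in the course. Of the 19 probes that were 2-fold higher, 15 were above both day 4 arrays in both mESC arrays (78.9%, against 27.7% of all probes) and 16 in all 4 arrays of the iPSC clones (84.2%, against 24.8%), and 7 in both keratinocyte arrays (36.8%, against 25.7%). On day 18, 9 of the 19 were above both day 8 arrays of their cassette in both cassettes (47.4%, against 17.9%). The day 4 arrays enter both sides of the mESC, iPSC and keratinocyte counts. The day 8 arrays that chose the probes enter the day 18 count, so all these counts are given as a description. Utf1 went on to 3913 in high-KLF4 and 6099 in low-KLF4 cells on day 18 and Tdgf1 to 3091 and 5310, and in the clones Utf1 lay between 8798 and 9029. Krt18 was higher on day 18 (7739 and 6924) and lower in the clones (508 to 585). The 3 lower probes were below both day 4 arrays in mESCs, iPSC clones and keratinocytes, and all 3 were already lower on day 4 than on day 2 in both cassettes. Anxa10 read 1019 and 1514 on day 2 in high-KLF4 and low-KLF4 cells. Mogat2 did not stay low, with 1161 and 1090 on day 18.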

How the data were processed

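Series-matrix values of Affymetrix Mouse Gene ST arrays were used: deposited linear intensity values (20.2 to 19538.7), which the authors obtained with RMA in GeneSpring, with array medians of 139.4 to 161.6 and no detection calls. Log2 was taken here. GPL annotation named 1 gene for 21789 of 28853 probes, several for 1621 and none for 5443; 23410 were tested. Limma 3.58.1 (R 4.3.3) was fitted on the 6 arrays with day and cassette (3 residual and 1.83 prior degrees of freedom). The cassette difference came from all 18 arrays in 12 groups. P-values measure only the spread between these arrays. In 26 gene lists (589 genes measured) a gene was read by its brightest single-symbol probe. Members and lists were chosen with earlier results of these data known. By rule, named genes were probes 2-fold apart on all 4 day 8 arrays, genes the study named and probes past the cassette test. Further list members were picked after their values were seen. Tested on simulated data with the spread of the 6 arrays over 23410 probes, the fit found 47 of 100 probes changed by 1 and 83 of 100 changed by 2. The cassette test found 27 and 72. In both simulations the noise was independent between arrays, with no effect shared by array number. The first also held no cassette difference of the change, so these counts may not hold for the real arrays. Promoters came from RefSeq (GRCm38.p6). The number of arrays limits the precision. Alternatives are given under the closing section.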

Additional observations from a re-analysis of the deposited data

Results flagged for a closer look

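For 2 genes the change from day 4 to day 8 differed between the cassettes by the test of that difference: it was larger in high-KLF4 by 3.45 for Nr0b1 and by 2.66 for Dppa5a on the log2 scale. For the list of ribosome biogenesis and MYC target genes, both high-KLF4 arrays had medians above 0 (0.08 and 0.14) and both low-KLF4 arrays below 0 (-0.05 and -0.01), with a difference of the mean medians of 0.143 that was not tested. For Amt, a gene of glycine cleavage, 1 of the 4 day 8 arrays stood away from the others: low-KLF4 day 8 replicate 2 had a change of 1.61, against 1.06 to 1.14 on the other 3, so that the gap was 0.853 of the range, above Dixon's critical value for 4 samples. In all 60 results were set against that value, of which chance flags about 1 in 20.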

How the results depend on the processing

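The number of probes past limma depended on how the spread was estimated. In the 6-array fit the spread also holds any difference of the change between cassettes. The fit of 18 arrays in 12 groups called 27 higher and 14 lower. The arrays numbered 1 alone gave 307 and 227, and those numbered 2 alone 266 and 346. Day 8 arrays share numbers across cassettes, but day 4 has only number 1, so that the numbers do not establish pairs; the r of 0.735 between the cassettes is a hint from the data. With a replicate block 41 probes rose and 24 fell. The counts stayed at 0 and 0 without the cassette block, without the dimmest 30% of probes, after a second quantile normalization, with limma-trend, with single-symbol or all probes, by the t-test of the methods and without any of the 6 arrays. The 2 larger cassette differences became 0 in the fit of the 6 arrays, also with a replicate block in it, and ranged between 0 and 50 without 1 day 8 array, with 0 to 3 smaller ones. At 4-fold, 2 probes were higher and 0 lower on all arrays. At 2-fold the arrays numbered 1 alone gave 88 and 10, those numbered 2 alone 211 and 251, and leaving out 1 array 21 to 82 higher and 3 to 22 lower. Of 577 values of named genes, 571 kept their direction. The 22 probes chosen as 2-fold apart on all 4 day 8 arrays could not reverse when arrays were left out. The count therefore does not measure how stable the directions were. With the arrays numbered 1 alone Itga6 was at -0.15, Itgb4 at -0.026 and Itgb1 at 0.31, and Itgb1 ranged from -0.31 to 0.093 when 1 array was left out, above 0 without high-KLF4 day 8 replicate 2 (0.07), low-KLF4 day 8 replicate 2 (0.093) or the high-KLF4 day 4 array (0.04). Of 442 list medians 427 moved by under 1 SD, taken over the list's own medians on the 4 day 8 arrays. Lists that differed more between arrays thus had a wider limit, so the count does not measure how stable they were. Causes were not tested.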
